A study of Mus musculus with 123 samples.

Results

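The comparison described here sets 8 early inner cell masses (ICMs) without Sox2 against 8 Ctrl early ICMs of the same mouse line, 16 of the 96 Ctrl and KO embryos of the series, which also held 27 embryos of a group called MWT. The members were chosen by their sample labels alone. In the Sox2-KO ICMs neither the maternal nor the zygotic gene was intact. Their mothers were Sox2 flox/flox and carried Zp3-Cre, which recombines in the growing oocyte, and their fathers were Sox2 +/EGFP. The EGFP of the mutant paternal allele is driven by a PGK promoter, and KO embryos were picked by their fluorescence. The Ctrl ICMs came from the same kind of mating and had inherited the intact paternal allele, so they too lacked the maternal gene and carried only 1 working copy. The MWT group of this line and stage held 7 early ICMs from mothers with Sox2 intact, and its level is given for many of the genes described. All 23 ICMs were labelled B6C3F1 and early ICM at E3.75 (days of embryonic development), were taken from superovulated mothers, and were cultured in KSOM medium with 1 µM of the MEK inhibitor PD0325901 before the outer trophectoderm was killed by immunosurgery. Each library is 1 ICM, and the labels do not say which ICMs were littermates.

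Sox2 is an HMG-box transcription factor that binds DNA together with Oct4 (gene symbol Pou5f1) at composite sites near genes of the pluripotency network. In the blastocyst its expression becomes restricted to the ICM, whose cells form the epiblast, which gives rise to the embryo proper, and the primitive endoderm, while the outer cells form the trophectoderm of the placenta. Epiblast precursors secrete Fgf4, which signals through Fgf receptors and the MEK kinase and drives neighbouring cells towards primitive endoderm, and the MEK inhibitor blocks that signal.

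Expression was measured by 3′-end sequencing with unique molecular identifiers (UMIs), random tags that allow each captured transcript to be counted once. Total UMIs per ICM ran from 812,422 to 1,051,677 in Ctrl and from 775,085 to 1,029,244 in KO embryos, and 12,885 to 13,862 and 12,875 to 13,667 genes had at least 1 UMI. Levels are given as CPM, the count of a gene per 1000000 UMIs of the ICM. In these 16 ICMs 1 UMI was worth 0.951 to 1.29 CPM, so a level near 1 CPM rests on about 1 molecule. Neither the total (exact permutation test, two-sided, p = 0.904) nor the number of detected genes (exact permutation p = 0.804) nor the mitochondrial share (4.42 to 5.24% in Ctrl and 3.96 to 5.70% in KO, exact permutation p = 0.585) differed beyond the spread between embryos. The counts of Y-linked genes reached 10 UMIs in 3 of 8 Ctrl, 3 of 8 KO and 5 of 7 MWT ICMs. In a whole ICM a lower level can mean fewer cells of a type or less RNA per cell, which cannot be told apart here.

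Sox2 itself (ENSMUSG00000074637, mm10 chr3:34650405-34652461, plus strand) was at 72.6, 94.0 and 194 CPM in the lowest, the median and the highest Ctrl ICM and at 7.74, 24.3 and 36.4 CPM in KO. Every KO ICM was below every Ctrl ICM, and the MWT median was 106 CPM. The log2 fold change was -2.12 ± 0.31 (SE, n = 8 and 8), with an adjusted p of 2.92e-07 in edgeR's quasi-likelihood test with Benjamini-Hochberg adjustment, the test behind every adjusted p given for a gene. A total of 176 Sox2 UMIs remained over the 8 KO ICMs against 800 in Ctrl, a ratio of 0.221 per UMI sequenced (95% interval for counting error 0.187 to 0.261). According to the methods, the 3′ loxP site lies in the 3′ UTR of the gene and the EGFP cassette also stands there, so 3′ tags beyond that site would lie outside the deleted part, and Sox2ot overlaps the gene on the same strand. The part of either in the remaining counts was not tested. Pou5f1 showed no such loss, with 40.5, 53.7 and 88.6 CPM in Ctrl, 40.1, 47.6 and 73.8 CPM in KO and a log2 fold change of -0.08 ± 0.20 (adjusted p = 0.87). Its MWT median of 115 CPM was above every Ctrl and KO ICM.

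Of 14,053 genes tested, 459 (3.27%) were called changed at an adjusted p under 0.05 and a log2 fold change of at least 1 in either direction. Of these, 221 (1.57%) were higher and 238 (1.69%) lower in KO, and the median log2 fold change of all genes tested was -0.01. The lower genes moved slightly further, with a median size of 1.80 on the log2 scale against 1.63 for the higher genes, and 33 of the lower and 15 of the higher genes changed by at least 3. Protein-coding genes made up 216 of the lower and 205 of the higher genes. All 8 KO ICMs lay below the Ctrl median for 222 of the 238 lower genes and above it for 148 of the 221 higher genes, while the groups did not overlap at all for 52 and 44 genes. These counts describe called genes, which were picked by their group difference. No share over all genes tested is given beside them. The X chromosome held 19 of the called genes (4.14%) and 432 of those tested (3.07%).

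The Ctrl ICMs were not uniform. Ctrl ICMs 9, 10, 11 and 15 were all above the other 4 Ctrl ICMs in 45 of the 238 lower genes (18.9%) and in 606 of all genes tested (4.31%). In 11 of the lower genes these 4 were above every KO ICM while none of the other 4 exceeded the highest KO ICM, and among the genes described below that held for Slc1a4, Asns, Nupr1, Slc7a3, Slc7a1, Tcl1 and Tcf7l1. When the 4 ICMs were left out, a setting chosen after seeing the data that also removes 4 of 8 control embryos, 108 genes were higher and 121 lower, of which 91 and 84 were shared with the full comparison. Of 69 called genes described below, 38 kept their call and 31 lost it, and the fold change turned positive for Asns, Nupr1, Slc7a1 and Tcf7l1. The call was also lost, with a fold change more than 1.5 times smaller, for Lifr (-1.66), Junb (-1.04) and Slc2a3 (1.17). It was lost with a smaller reduction for Ly6e, Cdc6, Bmp4, Tdh, Smad7, Cdkn2c, Cdx2, Eomes, Cish, Bmf and Krt8. For Wnt3a (3.18), Ier3 (2.43), Cited4 (2.45) and Fgf3 (-2.71) it was lost although the fold change was larger than with all Ctrl ICMs. The values of the others that lost their call are given with each gene. On a score of the genes that change from early to late ICM, defined with the stages below, these 4 were at -0.17 to 0.17, above the other 4 Ctrl ICMs (-0.92 to -0.33) and every KO ICM (-0.65 to -0.26). The part of this difference in the calls was not tested.

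Against the 7 MWT ICMs in place of Ctrl, 32 of the 69 called genes described below were not called. The direction was the opposite for Lrp2, Smad7, Cdx2, Nupr1, Cish, Cldn4 and Tcf7l1. It was the same, without a call, for Ly6e, Fgf4, Frmd4b, Slc2a3, Mthfd2, Wnt3a, Cdc6, Slc1a4, Tdh, Dab2, Cdkn2c, Asns, Vgll4, Fgfr2, Fgf3, Eomes, Tdgf1, Trib3, Slc7a1, Tcl1, Zic5, Prdm14, Krt8, Junb and Trp53.

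**Figure D1:**
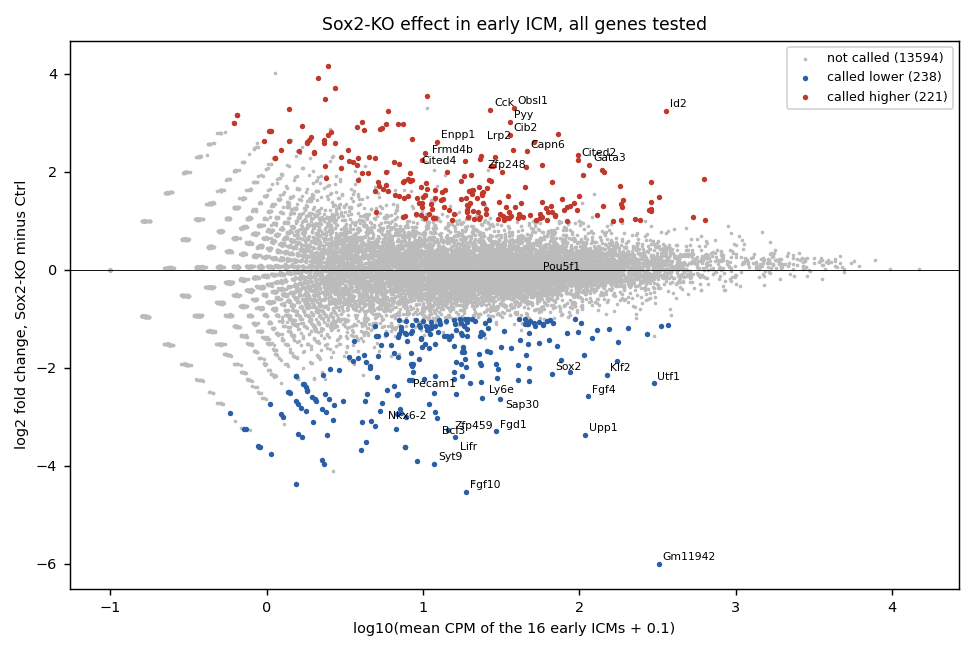
Log2 fold change of Sox2-KO over Ctrl early ICM (vertical axis) against the mean level of the 16 ICMs as log10(CPM + 0.1) (horizontal axis), 1 point per gene tested. Blue points are the 238 genes called lower and red points the 221 called higher; the points at the foot and the top of the cloud at more than 10 CPM include Fgf10, Upp1, Utf1, Id2 and Obsl1, and the lowest point of all is the pseudogene Gm11942.

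Where all KO ICMs were on one side of the Ctrl median and the group with the higher mean reached 20 CPM, the 12 largest decreases included genes of growth factor signalling, secretion and metabolism. Fgf10, a secreted fibroblast growth factor, was at 16.0, 38.9 and 55.6 CPM in Ctrl and at 0, 0.486 and 6.45 CPM in KO. The groups were fully apart and 4 KO ICMs had no Fgf10 UMI, for a log2 fold change of -4.53 ± 0.60 (adjusted p = 2.1e-08). Its MWT median was 10.3 CPM, between the groups. Syt9, a synaptotagmin of regulated secretion, was at 7.26, 14.2 and 64.0 CPM in Ctrl and at 0, 1.16 and 3.01 CPM in KO, again without overlap (-3.96 ± 0.53, adjusted p = 2.68e-08). Upp1, uridine phosphorylase, which splits uridine into uracil and ribose phosphate, was at 44.6, 204 and 351 CPM in Ctrl and at 3.25, 16.3 and 42.7 CPM in KO. The highest KO ICM thus fell just short of the lowest Ctrl ICM (-3.36 ± 0.35, adjusted p = 8.15e-12). Fgd1, an exchange factor for the GTPase Cdc42, ran from 22.8 to 93.5 CPM in Ctrl and from 1.04 to 7.74 CPM in KO (-3.30 ± 0.35, adjusted p = 1.63e-11).

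Sap30, a subunit of the Sin3 histone deacetylase complex, was at 33.9, 41.4 and 92.1 CPM in Ctrl and at 2.15, 5.76 and 17.1 CPM in KO (-2.63 ± 0.29, adjusted p = 3.62e-11). All KO ICMs were below all Ctrl ICMs. Sap30 was the 1 called gene of 25 tested members of the Polycomb and Sin3 complexes, whose median log2 fold change was -0.06. Nkx6-2, a homeobox factor, ran from 15.2 to 37.4 CPM in Ctrl and from 0 to 5.20 CPM in KO (-2.91 ± 0.47, adjusted p = 4.11e-06). The zinc finger gene Zfp459 ran from 7.26 to 61.8 CPM in Ctrl and from 1.04 to 5.02 CPM in KO (-3.28 ± 0.45, adjusted p = 7.89e-08). Bcl3, an IκB-family regulator of NF-κB target genes, ran from 6.78 to 41.9 CPM in Ctrl and from 0 to 7.59 CPM in KO, where only the ends of the ranges met (-3.02 ± 0.45, adjusted p = 7.34e-07). Ly6e, a lipid-anchored surface protein, was at 14.5, 36.7 and 75.2 CPM in Ctrl and at 2.37, 6.43 and 10.4 CPM in KO. Although these groups did not overlap, its fold change carried the largest error of these 12 genes (-2.62 ± 0.86, adjusted p = 0.0445), and the call was lost when any of 13 embryos was left out (adjusted p of 0.0507 to 0.0933).

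Of 28 tested members of the naive pluripotency list, 6 were lower and 0 higher, with a list median of -0.27. Utf1, a chromatin-associated factor of undifferentiated cells, was at 293, 535 and 719 CPM in Ctrl and at 51.0, 111 and 138 CPM in KO. The whole KO range was below the Ctrl range, and the MWT median of 269.7 CPM lay between the ranges (-2.32 ± 0.20, adjusted p = 2.2e-15). Klf2, a Krüppel-like factor of the naive network, was at 146, 222 and 473 CPM in Ctrl and at 33.0, 47.8 and 99.8 CPM in KO (-2.14 ± 0.25, adjusted p = 8.19e-10). Pecam1, an adhesion molecule that marks ICM and epiblast cells, was at 20.7, 29.0 and 36.9 CPM in Ctrl and at 2.14, 4.10 and 8.03 CPM in KO (-2.55 ± 0.46, adjusted p = 3.44e-05). Neither gene had an ICM of one group inside the range of the other, and their MWT medians were 299 and 54.3 CPM. Prdm14, a repressor of differentiation genes (-1.52 ± 0.44, adjusted p = 0.0192), and Tcl1, a coactivator of the kinase Akt (-1.24 ± 0.40, adjusted p = 0.0443), were called with smaller changes. Prdm14 was no longer called without Ctrl ICM 10, Ctrl ICM 9 or KO ICM 11 (adjusted p of 0.0527 to 0.0643) and Tcl1 without any of 9 embryos (up to 0.147). Without Ctrl ICMs 9, 10, 11 and 15 neither was called, at fold changes of -1.02 for Prdm14 and -0.41 for Tcl1.

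The other 22 members were not called. Nanog, the homeobox factor of the naive epiblast, was at 574, 708 and 1088 CPM in Ctrl and at 677, 789.9 and 1010.5 CPM in KO, with ranges that largely coincided (0.19 ± 0.23, adjusted p = 0.711). Klf4, at medians of 275 and 365 CPM (0.46 ± 0.24, adjusted p = 0.267), and Zfp42, at 396 and 349 CPM (-0.05 ± 0.14, adjusted p = 0.892), also overlapped. The orphan nuclear receptor Esrrb was at 93.7 to 143 CPM in Ctrl and 65.8 to 89.1 CPM in KO, without overlap, yet missed the threshold (-0.55 ± 0.22, adjusted p = 0.113). Tfcp2l1, a factor downstream of LIF, was below the Ctrl median in all 8 KO ICMs (-0.28 ± 0.14, adjusted p = 0.224). Klf5 passed the adjusted p but not the fold change, in the upward direction (0.60 ± 0.16, adjusted p = 0.0097), and the most abundant members, Dppa3 and Dppa5a, had log2 fold changes of 0.11 ± 0.16 (adjusted p = 0.783) and 0.06 ± 0.17 (adjusted p = 0.899). Nanog, Klf4, Zfp42, Esrrb and Tfcp2l1 were picked for description after their values were seen. Summed over all 30 listed genes, naive transcripts were at 8,864, 10,108 and 12,704 CPM in Ctrl and at 8,548, 9,000 and 9,999 CPM in KO, and the groups overlapped.

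**Figure D2:**
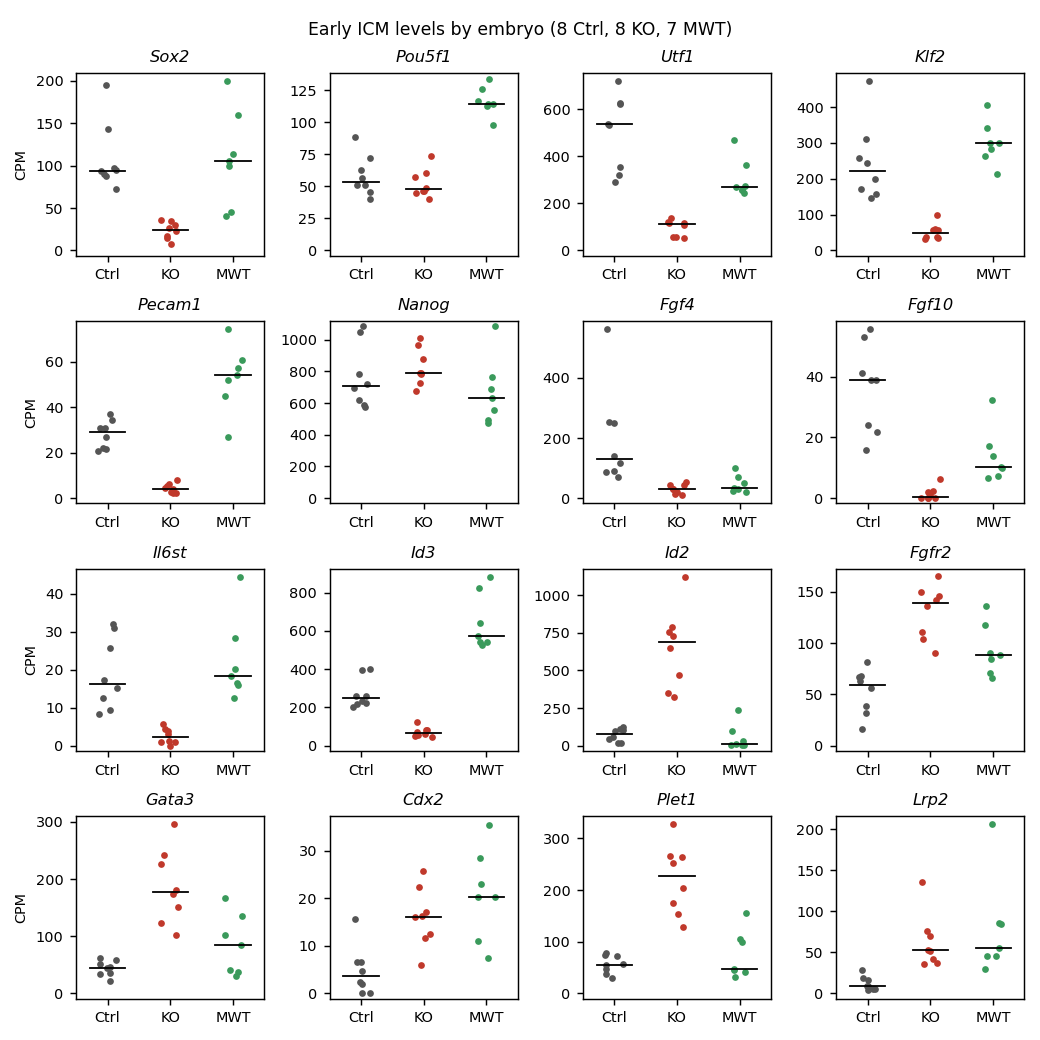
Level of 16 genes in each early ICM (vertical axis, CPM, linear scale, 1 panel per gene), with 8 Ctrl (grey), 8 KO (red) and 7 MWT (green) ICMs as points and group medians as bars. KO points lie wholly below Ctrl points for Sox2, Utf1, Klf2, Pecam1, Fgf4, Fgf10, Il6st and Id3 and wholly above them for Id2, Fgfr2, Gata3, Plet1 and Lrp2, while Nanog and Pou5f1 overlap; for Fgf4, Cdx2 and Lrp2 the MWT median lies near the KO median.

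Receptors of leukaemia inhibitory factor (LIF), a cytokine that sustains naive cells through the kinase JAK and the factor Stat3, were lower in KO. Il6st, which encodes the shared signalling chain gp130, was at 8.30, 16.3 and 32.1 CPM in Ctrl and at 0, 2.20 and 5.83 CPM in KO, with no overlap (-2.75 ± 0.43, adjusted p = 1.95e-06). Lifr, the ligand-specific chain, was at 1.04, 13.6 and 78.8 CPM in Ctrl and at 0, 1.19 and 7.77 CPM in KO (-3.42 ± 0.67, adjusted p = 0.000164). The Ctrl ICMs themselves differed widely in Lifr. All 8 KO ICMs were below the Ctrl median, which the rule for the 12 largest decreases required. Socs2, a feedback inhibitor of cytokine receptors, was at 39.0, 49.1 and 59.1 CPM in Ctrl and at 5.37, 9.70 and 15.4 CPM in KO (-2.22 ± 0.29, adjusted p = 2.1e-08), whereas its relative Cish was higher, at 6.15, 11.7 and 19.02 CPM in Ctrl and 21.4, 29.7 and 54.6 CPM in KO (1.46 ± 0.33, adjusted p = 0.00134). Neither pair of groups overlapped, but the MWT median of Cish (30.5 CPM) was within the KO range and that of Socs2 (80.2 CPM) above Ctrl. These were the 3 lower and 1 higher genes among 17 tested members. Stat3 itself was at 177 CPM in Ctrl and 158 CPM in KO (0.06 ± 0.16, adjusted p = 0.898), and Ptpn11, a phosphatase that links such receptors to MAPK signalling, fell by less than the fold threshold (-0.49 ± 0.14, adjusted p = 0.0181).

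Among fibroblast growth factor genes, 3 ligands were called lower and 1 receptor higher. Fgf4 was at 70.6, 129 and 563 CPM in Ctrl and at 10.4, 30.5 and 54.5 CPM in KO, so the highest KO ICM was below the lowest Ctrl ICM (-2.58 ± 0.36, adjusted p = 8.22e-08). Without Ctrl ICMs 9, 10, 11 and 15 the fold change was -1.58 (adjusted p = 0.00843). The 7 MWT ICMs, however, had a median of 32.2 CPM, close to that of KO, and the difference between KO and MWT missed the threshold (-0.52, adjusted p = 0.381). Fgf3, a related ligand, had 32 UMIs over the Ctrl and 4 over the KO ICMs, a ratio of 0.126 (95% counting interval 0.0323 to 0.354, adjusted p = 0.0289), and its call was lost when any of 5 KO embryos was left out (up to an adjusted p of 0.0599). Fgfr2, the receptor that marks primitive endoderm and trophectoderm precursors, was at 16.0, 59.5 and 81.5 CPM in Ctrl and at 89.9, 139 and 165 CPM in KO (1.37 ± 0.24, adjusted p = 2.88e-05). All KO ICMs exceeded all Ctrl ICMs, and the MWT median of 88.8 CPM was above the highest Ctrl ICM. Fgfr1 overlapped, with medians of 144 and 151 CPM (0.25 ± 0.20, adjusted p = 0.53). The receptor adaptor Frs2 was higher without overlap, from 42.0 to 77.3 CPM in Ctrl to 78.7 to 129.96 CPM in KO, but just under the fold threshold (0.93 ± 0.18, adjusted p = 0.000109). In all, 3 genes were lower and 1 higher of 13 tested in this list, Fgf10 included.

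Among 16 feedback and immediate early genes of MAPK signalling, the cascade that contains MEK, 2 were lower and 1 higher. Egr1, an immediate early zinc finger factor, was at 72.0, 143 and 231 CPM in Ctrl and at 16.1, 30.03 and 60.6 CPM in KO, with no overlap (-2.08 ± 0.36, adjusted p = 1.66e-05). Junb, a subunit of the AP-1 factor, was at 17.6, 42.6 and 87.2 CPM in Ctrl and at 6.24, 9.46 and 27.3 CPM in KO (-1.92 ± 0.39, adjusted p = 0.000387). Only KO ICM 8 reached into the Ctrl range of Junb, and the MWT medians of both genes (68.5 and 23.3 CPM) were below those of Ctrl. Ier3, a stress-induced survival gene, was higher (2.00 ± 0.62, adjusted p = 0.0304), with 1 KO ICM at 63.1 CPM and a KO median of 19.95 CPM. Without that ICM (KO 10) the adjusted p was 0.133, and without Ctrl ICM 5 or 10 it was 0.0614 or 0.0549. Spry2 and Spred2, which restrain the pathway, were at medians of 247 and 70.6 CPM in Ctrl and 308 and 88.2 CPM in KO, below the threshold (adjusted p = 0.212 and 0.0747).

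Id2 and Id3, inhibitors of basic helix-loop-helix factors and classic targets of bone morphogenetic protein (BMP) signalling, changed in opposite directions, and their relative Id1 was not called, at means of 2.499 and 1.44 CPM (-0.61 ± 0.67, adjusted p = 0.675). Id2 was at 16.5, 76.5 and 122.95 CPM in Ctrl and at 326, 689 and 1121 CPM in KO, so the lowest KO ICM had more than the highest Ctrl ICM (3.25 ± 0.54, adjusted p = 8.38e-06). It was the most abundant of the 12 genes with the largest increases, and its MWT median was lower still, at 10.1 CPM. Id3 was at 204, 248 and 402 CPM in Ctrl and at 43.7, 66.2 and 125 CPM in KO, again without overlap but in the other direction (-1.87 ± 0.29, adjusted p = 1.95e-06), and its MWT median was 572 CPM. Bmp4, a BMP ligand, was at 8.56, 31.2 and 68.9 CPM in Ctrl and at 0, 4.86 and 13.9 CPM in KO (-2.30 ± 0.47, adjusted p = 0.000437). The 8 KO ICMs were below the Ctrl median of Bmp4, with a small overlap. Smad7, an inhibitory Smad, was higher (1.23 ± 0.30, adjusted p = 0.00411), from a Ctrl median of 15.8 CPM to 31.0 CPM in KO, but the MWT median was 33.4 CPM and without KO ICM 11 the fold change was 0.92. The other 11 of 15 tested members were not called, among them the receptors Bmpr1a (0.18 ± 0.17, adjusted p = 0.598) and Bmpr2 (0.53 ± 0.23, adjusted p = 0.162).

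In the Nodal pathway, 2 of 12 tested genes were lower and 0 higher. Gdf3, a ligand of the family, was at 22.8, 68.9 and 89.4 CPM in Ctrl and at 4.75, 13.9 and 41.2 CPM in KO (-1.94 ± 0.30, adjusted p = 1.05e-06). One KO ICM at 41.2 CPM reached into the Ctrl range, and the MWT median was 44.0 CPM. Tdgf1, the Nodal co-receptor, was at 80.9, 239.9 and 547 CPM in Ctrl and at 60.3, 122 and 170.3 CPM in KO (-1.19 ± 0.28, adjusted p = 0.00259). Its MWT median of 126 CPM was close to that of KO, and the fold change was -0.98 without Ctrl ICM 10 and -0.35 without Ctrl ICMs 9, 10, 11 and 15. In the Wnt pathway Tcf7l1, a repressor of Wnt targets, was lower (-1.69 ± 0.44, adjusted p = 0.00725, and 0.057 without Ctrl ICM 10). Ctrl ICMs 9, 10, 11 and 15 were at 30.7 to 102 CPM of Tcf7l1, the other 4 Ctrl ICMs at 4.15 to 17.4 CPM and the KO ICMs at 3.22 to 22.3 CPM. The MWT mean of 4.70 CPM was below the KO mean of 11.8 CPM, so the direction against MWT was the opposite. Wnt3a was higher on 4 UMIs in Ctrl and 24 in KO (adjusted p = 0.0208, and 0.107 without KO ICM 11), and 19 members were not called. Among 9 tested genes of the later, formative epiblast, Zic5 was lower (-2.95 ± 0.67, adjusted p = 0.00152), with a Ctrl range of 0.951 to 50.5 CPM, and at -1.17 without Ctrl ICMs 9, 10, 11 and 15 it was not called. Of 6 other Sox genes tested, 0 were called. By edgeR 2 had an unadjusted p under 0.05 and by DESeq2 0 were called. Sox21, a repressor of the SoxB group, was at 77.8 to 134 CPM in Ctrl and 29.0 to 70.0 CPM in KO without overlap but fell short of the fold threshold (-0.90 ± 0.29, adjusted p = 0.0403), and Sox15 and Sox13 had adjusted p of 0.704 and 0.78.

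Of 14 tested trophectoderm transcription factors, 3 were called higher, 1 lower and 10 neither, with a list median of 0.82. Of all genes tested, 1.57% were higher and 1.69% lower. Gata3, a zinc finger factor of the trophoblast, was at 21.02, 45.0 and 62.0 CPM in Ctrl and at 102, 177 and 296 CPM in KO, with the groups fully apart and an MWT median of 84.1 CPM between them (2.14 ± 0.34, adjusted p = 3.83e-06). Eomes, a T-box factor of trophoblast stem cells, was at 1.11, 11.4 and 17.6 CPM in Ctrl and at 18.4, 28.5 and 43.2 CPM in KO (1.56 ± 0.38, adjusted p = 0.00384). These groups did not overlap either, but the MWT median was 13.9 CPM and Eomes was not called against MWT (1.06, adjusted p = 0.0651). Cdx2, the homeobox factor that defines the trophectoderm, was at 0, 3.61 and 15.6 CPM in Ctrl and at 5.93, 16.2 and 25.8 CPM in KO (1.77 ± 0.44, adjusted p = 0.00417). Its ranges overlapped, and the MWT median of 20.3 CPM was above that of KO. Tfap2c, an AP-2 factor shared by trophectoderm and early pluripotent cells, was the lower gene (-1.03 ± 0.25, adjusted p = 0.00361), with its fold change between -0.87 and -0.99 without any 1 of 8 embryos. Elf3, at 249 and 409 CPM, was above the Ctrl median in all KO ICMs but missed the threshold (0.78 ± 0.27, adjusted p = 0.062), and Hand1 overlapped (-0.91 ± 0.53, adjusted p = 0.343).

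Of 27 tested genes of the trophectoderm epithelium, 4 were higher and 0 lower, with a median of 0.87. Plet1, a surface protein of early trophoblast, was at 30.4, 55.6 and 78.5 CPM in Ctrl and at 129, 228 and 328 CPM in KO, without overlap, and at a median of 48.2 CPM in MWT (2.04 ± 0.27, adjusted p = 1.95e-08). Cldn4, a tight junction claudin, was at 77.0, 98.2 and 183 CPM in Ctrl and at 155, 272 and 364 CPM in KO (1.29 ± 0.22, adjusted p = 1.51e-05), but at 278 CPM in MWT. Ptges, prostaglandin E synthase, rose from a median of 33.1 to 90.4 CPM (1.29 ± 0.31, adjusted p = 0.0028). Krt8, an intermediate filament keratin, was at 37.6, 169 and 263 CPM in Ctrl and at 160.4, 330.1 and 994 CPM in KO (1.39 ± 0.44, adjusted p = 0.0349). Its highest value was in KO ICM 11, with the next highest at 428 CPM, and without that embryo the adjusted p was 0.159. It was also lost without Ctrl ICM 5, 9 or 11 (adjusted p of 0.0624 to 0.0838). Its partner Krt18, also picked afterwards, was at 472 CPM in the same ICM and was not called (1.37 ± 0.55, adjusted p = 0.12).

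Because trophectoderm is removed by immunosurgery, the summed level of these lists was compared with the other cell type markers. The 15 listed factors summed to 412, 701 and 990 CPM in Ctrl, 741, 1,113 and 1,463 CPM in KO and 490, 713 and 965 CPM in MWT. The 28 epithelial genes summed to 1,327, 1,836 and 1,996 CPM in Ctrl, 1,718, 2,193 and 3,812 CPM in KO and 1,617, 2,241 and 2,947 CPM in MWT. The KO ICMs thus tended to the top of the factor sum, while for the epithelial sum the MWT median was at least as high as that of KO. KO ICM 11 stood highest in both sums. The part of remaining trophectoderm cells in these values was not tested. Markers of cumulus and blood cells were near 0, with sums of 1.09 to 6.62 CPM in Ctrl and 5.02 to 19.2 CPM in KO and only 4 of 14 listed genes detected widely enough to be tested.

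**Figure D3:**
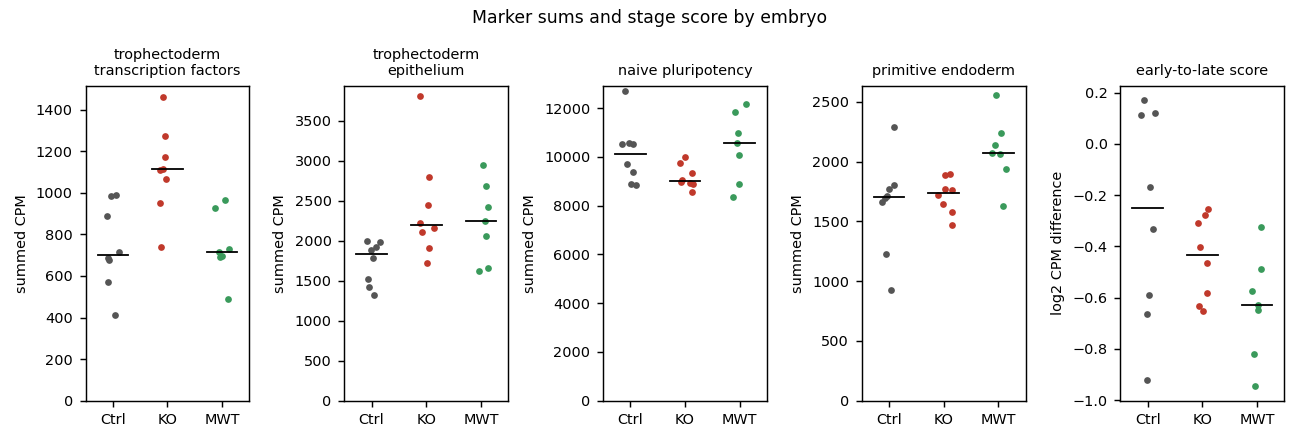
Summed CPM of 4 marker lists and the early-to-late score (vertical axes) in each of the 8 Ctrl (grey), 8 KO (red) and 7 MWT (green) early ICMs, with medians as bars. KO medians are above Ctrl for trophectoderm factors (1,113 against 701 CPM) and close to it for primitive endoderm (1,742 against 1,708 CPM), and the Ctrl ICMs span the widest range of the score, from -0.92 to 0.17.

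None of 19 tested primitive endoderm genes was called by edgeR or DESeq2, 1 had an unadjusted p under 0.05, and their median log2 fold change was -0.05. Gata6, the early factor of that lineage, was at 49.2, 412 and 592 CPM in Ctrl and at 185, 405 and 620.2 CPM in KO (0.44 ± 0.25, adjusted p = 0.315). The factor Sox17 ran from 1.04 to 104 CPM in Ctrl and from 3.01 to 67.6 CPM in KO (-1.10 ± 0.66, adjusted p = 0.363). Gata4 was low in most ICMs of both groups, with medians of 5.58 and 1.62 CPM and single ICMs up to 31.9 CPM in Ctrl and 18.98 CPM in KO, and the receptor Pdgfra had medians of 65.0 and 51.7 CPM (adjusted p = 0.991). Gata4, Sox17 and Pdgfra were added to the description after their values were seen. The summed list was at 928, 1,708 and 2,293 CPM in Ctrl and 1,471, 1,742 and 1,898 CPM in KO. By contrast, 2 of 4 genes of the apical endocytic receptor complex, which takes up maternal proteins in the visceral endoderm and trophectoderm, were higher. Lrp2, which encodes megalin, was at 3.80, 9.03 and 28.1 CPM in Ctrl and at 35.3, 52.8 and 136 CPM in KO with no overlap (2.45 ± 0.46, adjusted p = 7.98e-05), and its adaptor Dab2 was at 8.85, 31.7 and 49.8 CPM in Ctrl and at 43.2, 96.4 and 195 CPM in KO (1.79 ± 0.37, adjusted p = 0.000478). The MWT median of Lrp2, 55.7 CPM, was at the KO level, and that of Dab2, 33.4 CPM, at the Ctrl level. With 1 MWT ICM at 164 CPM, Dab2 was not called against MWT (1.14, adjusted p = 0.0511). The partners Cubn and Amn were not called (-0.56 ± 0.44, adjusted p = 0.522, and -0.04 ± 0.75, adjusted p = 0.991).

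In the Hippo pathway, which sets trophectoderm against ICM fate through Yap and Tead factors, 2 of 18 tested genes were higher. Amotl2, a junctional angiomotin that binds Yap, was at 23.9, 60.5 and 115 CPM in Ctrl and at 87.3, 132 and 201 CPM in KO, with all KO ICMs above the Ctrl median (1.22 ± 0.33, adjusted p = 0.0114). Vgll4, which competes with Yap for Tead, rose from a Ctrl range of 0 to 3.69 CPM to a KO range of 1.04 to 9.03 CPM (2.22 ± 0.59, adjusted p = 0.00879). The Vgll4 call was lost against MWT, by limma and with counts thinned to the lowest total. Tead4, which is needed for the trophectoderm and was added afterwards, had medians of 69.0 and 76.1 CPM (0.26 ± 0.16, adjusted p = 0.399), and the pathway target Ccn2 had medians of 289 and 192 CPM (-0.69 ± 0.31, adjusted p = 0.179).

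The largest increases outside these lists covered hormones, enzymes and cytoskeletal genes. Obsl1, a cytoskeletal adaptor, was at 3.80, 7.02 and 10.9 CPM in Ctrl and at 33.2, 63.1 and 112 CPM in KO, and at a median of 0 CPM in MWT (3.30 ± 0.42, adjusted p = 9.58e-09). Cib2, a calcium-binding protein, was at 2.85, 10.6 and 17.7 CPM in Ctrl and at 20.8, 61.2 and 109 CPM in KO (2.76 ± 0.43, adjusted p = 1.83e-06). Both pairs of groups were fully apart. The gut peptide hormone genes Cck and Pyy were also higher. Cck was at 0, 3.21 and 15.5 CPM in Ctrl and at 4.75, 32.7 and 112 CPM in KO (3.26 ± 0.48, adjusted p = 5.08e-07), and Pyy at 0, 1.68 and 36.4 CPM in Ctrl and at 11.9, 38.1 and 195 CPM in KO (3.01 ± 0.78, adjusted p = 0.00825). For Pyy 2 Ctrl ICMs were inside the KO range and the call was not made by DESeq2, and MWT ICMs had a median of 4.40 CPM of either hormone gene.

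Enpp1, an ectoenzyme that makes pyrophosphate from ATP, ran from 1.04 to 7.63 CPM in Ctrl and from 10.7 to 69.2 CPM in KO (2.61 ± 0.51, adjusted p = 0.000232). Capn6, a calpain that lacks protease activity, was at medians of 15.3 and 101 CPM (2.41 ± 0.48, adjusted p = 0.000214), and Frmd4b, a FERM-domain scaffold, at 7.40 and 37.4 CPM (2.31 ± 0.45, adjusted p = 0.000192). The zinc finger gene Zfp248 ran from 3.32 to 10.9 CPM in Ctrl and from 13.05 to 65.8 CPM in KO (2.27 ± 0.34, adjusted p = 7.17e-07). Of these, Enpp1, Frmd4b and Zfp248 had no overlap between the groups. Cited2 and Cited4, related coactivators that bind CBP and p300, rose together, Cited2 from a median of 31.6 to 149 CPM (2.24 ± 0.45, adjusted p = 0.000247) and Cited4 from 4.38 to 22.9 CPM (2.22 ± 0.57, adjusted p = 0.00652). All 8 KO ICMs were above the Ctrl median of either gene, as the rule for the largest increases required. The MWT medians, 12.7 and 1.27 CPM, were below those of both groups.

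Of 90 tested genes in 5 metabolic lists, 3 (3.33%) were called, close to the 3.27% of all genes. Slc2a3, the high-affinity glucose transporter, was at 44.9, 109 and 255 CPM in Ctrl and at 202, 422 and 672 CPM in KO (1.79 ± 0.33, adjusted p = 5.38e-05), but also at 378 CPM in MWT, and it was the 1 called gene of 20 in glycolysis and lactate. Gapdh and Aldoa, enzymes of the same pathway, were not called (0.21 ± 0.31, adjusted p = 0.777, and 0.34 ± 0.15, adjusted p = 0.161). Of 16 genes of threonine, serine and one-carbon metabolism, 2 were lower and 13 had a negative fold change. Tdh, threonine dehydrogenase, on which mouse embryonic stem cells depend, was at 23.2, 59.2 and 99.4 CPM in Ctrl and at 10.7, 19.3 and 32.2 CPM in KO (-1.44 ± 0.32, adjusted p = 0.00121), with an MWT median of 27.2 CPM. Mthfd2, a mitochondrial folate enzyme, fell from a median of 61.8 to 28.1 CPM (-1.11 ± 0.29, adjusted p = 0.00648), with fold changes of -0.91 and -0.93 without Ctrl ICM 10 and 11 and of -0.16 without Ctrl ICMs 9, 10, 11 and 15. Gldc, of the glycine cleavage system, was just short of the fold threshold (-0.99 ± 0.28, adjusted p = 0.0175). Mthfd1, a cytosolic folate enzyme, was lower without overlap, from 160.1 to 229.7 CPM in Ctrl to 119 to 155 CPM in KO, but by less than the fold threshold (-0.41 ± 0.11, adjusted p = 0.00606). None of 20 genes of pyruvate and the TCA cycle, 22 of cholesterol synthesis or 12 of glutathione metabolism was called by edgeR or DESeq2, with 3, 6 and 5 at an unadjusted p under 0.05, although 20 of the 22 cholesterol genes had a negative fold change (median -0.28).

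Amino acid transporters and stress genes followed. Slc7a3, a cationic amino acid transporter, had 52 UMIs in Ctrl and 3 in KO, a ratio of 0.058 (95% counting interval 0.0116 to 0.179), and an adjusted p of 0.00126. Slc1a4, a transporter of serine and alanine, ran from 2.85 to 32.1 CPM in Ctrl and from 1.04 to 6.45 CPM in KO (-1.92 ± 0.49, adjusted p = 0.00606). Slc7a1 was lower as well (-1.36 ± 0.43, adjusted p = 0.0345), but not without any 1 of 8 embryos (adjusted p of 0.0553 to 0.114). These were 3 of 17 transporters. All 3 divided the Ctrl group at the same ICMs. For Slc1a4, Ctrl ICMs 9, 10, 11 and 15 were at 16.5 to 32.1 CPM and the other 4 at 2.85 to 4.36 CPM, within the KO range. For Slc7a1 these ranges were 30.7 to 42.0 CPM and 5.45 to 8.30 CPM against 3.89 to 11.8 CPM in KO, and for Slc7a3 they were 2.36 to 22.1 CPM and 0.951 to 1.09 CPM. Without the 4 Ctrl ICMs the fold changes were -0.14, 0.33 and -1.01, and none of the 3 was called (adjusted p of 0.736 to 0.964). In the integrated stress response, the program of the factor Atf4, 3 of 13 genes were lower. Trib3, a pseudokinase, ran from 2.18 to 39.4 CPM in Ctrl and from 0 to 5.37 CPM in KO (-2.23 ± 0.55, adjusted p = 0.00414). Asns, asparagine synthetase (-1.29 ± 0.42, adjusted p = 0.0409), and Nupr1, a stress-induced nuclear protein (-1.72 ± 0.51, adjusted p = 0.0232), were called with less certainty, as 8 and 5 of the 16 embryos ended the call when left out (adjusted p of 0.0564 to 0.3 and 0.057 to 0.105). The same 4 Ctrl ICMs carried these decreases. They were at 18.8 to 39.4 CPM of Trib3, 128 to 355 CPM of Asns and 47.2 to 82.5 CPM of Nupr1, while the other 4 Ctrl ICMs were at 2.18 to 6.78, 24.9 to 51.3 and 0 to 13.1 CPM and the KO ICMs at up to 5.37, 66.4 and 24.6 CPM. Without them the fold changes were -0.22, 0.38 and 1.24, with no call (adjusted p of 0.421 to 0.93). Atf4 itself was at medians of 318 and 313 CPM (0.13 ± 0.14, adjusted p = 0.67).

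The tumour suppressor Trp53 was at 84.1, 129 and 242 CPM in Ctrl and at 45.2, 63.2 and 89.8 CPM in KO (-1.09 ± 0.25, adjusted p = 0.00218), with all KO ICMs below the Ctrl median and a fold change of -0.93 without Ctrl ICM 10 and -0.61 without Ctrl ICMs 9, 10, 11 and 15, where it was not called. It was the 1 called gene of 15 on the p53 list. The target genes Cdkn1a, Ccng1 and Perp were not called (0.72 ± 0.45, 0.38 ± 0.30 and 0.03 ± 0.31, adjusted p = 0.392, 0.537 and 0.989). In the BCL2 family of apoptosis regulators, the pro-apoptotic Bmf was lower on a low level, from a median of 7.49 to 1.62 CPM (-1.88 ± 0.51, adjusted p = 0.0106), and 9 other genes were not called. In the cell cycle list 2 of 29 genes were higher. Cdc6, which loads the replicative helicase, was at 14.2, 20.8 and 33.8 CPM in Ctrl and at 26.2, 39.8 and 66.3 CPM in KO (1.09 ± 0.23, adjusted p = 0.000478, and a fold change of 0.99 without KO ICM 10), and Cdkn2c, an inhibitor of Cdk4 and Cdk6, rose from 5.33 to 13.4 CPM (1.36 ± 0.40, adjusted p = 0.0201, and 0.0734 without KO ICM 5). The kinase Cdk1 and its cyclin Ccnb1 were below the threshold (-0.49 ± 0.21, adjusted p = 0.173, and -0.31 ± 0.17, adjusted p = 0.331).

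Over all 31 lists, 52 of 480 tested genes (10.8%) were called, 20 higher (4.17%) and 32 lower (6.67%), beside 3.27%, 1.57% and 1.69% of all genes tested. The lists were chosen with earlier results of these data known, so this share is a description only. Of the lists, 20 had at least 1 called member. The 11 lists with 0 calls by edgeR, and also by DESeq2, were primitive endoderm, the other Sox genes, DNA methylation, pyruvate and the TCA cycle, glutathione, cholesterol synthesis, basement membrane and integrins, maternal and oocyte genes, cumulus and blood cells, Y-linked genes and the mitochondrially encoded genes. Of their 141 tested genes, 25 had an unadjusted p under 0.05, a share near the 19.6% of all genes tested. Within them Trim28, a corepressor that protects imprints, was at 1,059 and 944 CPM (-0.11 ± 0.13, adjusted p = 0.699), Tet1, a 5-methylcytosine oxidase, at 287 and 277 CPM (-0.19 ± 0.16, adjusted p = 0.56), and the oocyte gene Khdc3 at 1890.5 and 1,773 CPM (0.03 ± 0.16, adjusted p = 0.965). The antioxidant enzymes Gpx1 and Gsto1 passed the adjusted p with smaller increases (0.50 ± 0.14, adjusted p = 0.017, and 0.89 ± 0.28, adjusted p = 0.0329).

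**Figure D4:**
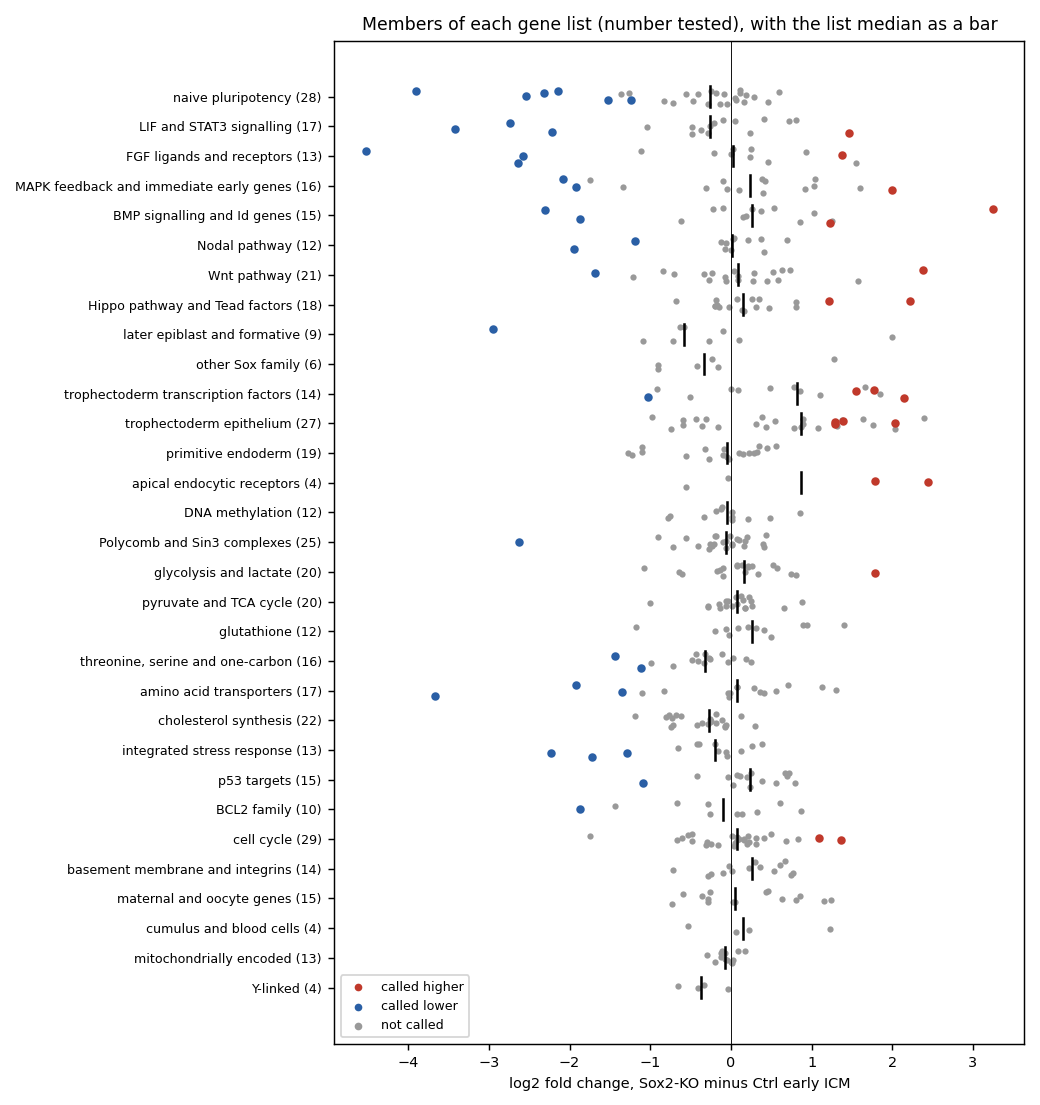
Log2 fold change of Sox2-KO over Ctrl early ICM (horizontal axis) for every tested member of the 31 gene lists (rows, with the number tested), blue where called lower, red where called higher and grey otherwise, with the list median as a black bar. The medians of the 2 trophectoderm lists (0.82 and 0.87) and of the apical endocytic receptors (0.87) stand to the right, and called lower genes lie far to the left also in lists whose median is near 0, such as FGF signalling (0.03).

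To set the changes beside differences between stages, genes were grouped by how they moved in Ctrl embryos of the separate Oct4 line. Their mothers were Pou5f1 flox/flox with Zp3-Cre and their fathers Pou5f1 +/mKO2, so they lacked maternal Oct4. The morulae were whole embryos at E2.75 with no PD0325901 in their labels. The early and late ICMs were cultured with 1 µM of it and freed of trophectoderm. The step from morula to early ICM thus mixes stage with inhibitor, culture and trophectoderm removal, which cannot be told apart. Of 1,988 genes (14.1%) that rose there from morula to early ICM, 97 (4.88%) were lower and 37 (1.86%) higher in Sox2-KO early ICMs, and of 2,092 genes (14.9%) that fell, 24 (1.15%) were lower and 53 (2.53%) higher. Of 1,338 genes (9.52%) that rose from early to late ICM, 80 (5.98%) were lower and 33 (2.47%) higher, and of 849 (6.04%) that fell, 5 (0.589%) were lower and 24 (2.83%) higher. The shares of rising genes that were lower stood above the 1.69% of all genes and those of falling genes below it, while the shares that were higher stood above the 1.57% of all genes in all 4 groups, and the median fold changes of these 4 groups stayed between -0.11 and 0.04. A score of the early-to-late genes, the mean log2 CPM of risers minus that of fallers, averaged -0.45 in KO and -0.28 in Ctrl (exact permutation test, two-sided, p = 0.312). Ctrl ICMs 9, 10, 11 and 15, which stood apart above, scored highest, at -0.17 to 0.17, and all KO ICMs lay between -0.65 and -0.26, among or above the other 4 Ctrl ICMs. The morula-to-early score did not differ beyond the spread either (exact permutation p = 0.333).

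The change at E3.75 was set beside that in 16 other ICMs of the line at E4.5. There 977 genes (6.95%) were called. In morulae of the line, also at E2.75 with no PD0325901 in their labels, only Sox2 was called (0.00712%, with 618 genes, 4.4%, at an unadjusted p under 0.05). Of the 221 higher genes, 107 (48.4%, or 22.8% of the 469 higher late ones, which were 3.34% of all) were also higher at E4.5, and of the 238 lower genes, 147 (61.8%, or 28.9% of the 508 lower late ones, 3.61% of all) were also lower. None was called in opposite directions at the 2 stages, and the median late fold changes were 1.18 and -1.60. Sox2 fell by 3.35 on the log2 scale at E4.5, Fgf4 by 3.50, Utf1 by 2.85, Klf2 by 2.47 and Id3 by 2.59, while Fgf10 fell by 1.97 and Id2 rose by 1.61. A test of the difference between the stages called 6 genes (0.0427%), all at an adjusted p of 0.0394, with 1,494 (10.6%) at an unadjusted p under 0.05. Gemin5, a subunit of the SMN complex, and Xrcc1, a DNA repair scaffold, had fold changes of -0.92 and -0.65 early and of 0.26 and 0.47 late. Pemt, Gpd1l and Ankzf1, of phospholipid, glycerol phosphate and protein quality control pathways, were called higher late (1.76, 1.62 and 1.49) and not early, and Rbbp5, a subunit of histone H3K4 methyltransferases, was lower late (-1.11). These 6 genes were named because the test called them, outside the rule for named genes.

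In Oct4-KO early ICMs, which lacked the maternal and the zygotic Oct4 gene, 1,529 genes (10.9%) were called against their own Ctrl. Of the 238 genes lower without Sox2, 116 (48.7%, or 13.5% of the 859 lower without Oct4, which were 6.11% of all) were also lower without Oct4, and 2 were higher. Of the 221 higher genes, 57 (25.8%, or 8.51% of the 670 higher without Oct4, 4.77% of all) were also higher and 14 were lower. The difference of the 2 effects was called for 776 genes (5.52%). Among the genes described above, Utf1 fell by 2.99 without Oct4, Klf2 by 1.45, Fgd1 by 2.88 and Pecam1 by 3.20, and the difference from the effect of Sox2 missed the threshold for all 4 (adjusted p of 0.18 to 0.705). Il6st, Gdf3 and Slc1a4 fell further without Oct4, to a median of 0 CPM from 16.4, 48.2 and 7.35 CPM in Oct4 Ctrl (adjusted p of the difference 0.0156, 3.2e-06 and 0.00605). Lifr, Syt9 and Fgf10 fell further without Sox2 (adjusted p of the difference 0.034, 0.00563 and 0.0212). Id2 was higher without Sox2 and near its Ctrl level without Oct4 (0.22, difference adjusted p = 0.00385).

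The 16 genes called in opposite directions were described after their values were seen. Pyy was lower without Oct4, at a median of 0 against 1.18 CPM (adjusted p = 0.0157), and higher without Sox2. The same directions were found for the carbohydrate response factor Mlxipl (-2.02 and 2.13), the circadian factor Arntl (-2.08 and 1.13), the placental genes Plac1 (-1.40 and 1.82) and Plac8 (-2.86 and 1.36), Nxpe3 (-2.05 and 1.92), Dennd2d (-2.57 and 3.01) and the class I histocompatibility gene H2-K1 (-3.37 and 1.02), with the fold change without Oct4 given first. H2-K1 was at 98.0, 118 and 180.1 CPM in Sox2 Ctrl and at 138, 217 and 374 CPM in Sox2-KO ICMs. Plac1, Plac8, Arntl and H2-K1 were not called in Sox2-KO ICMs without Ctrl ICMs 9, 10, 11 and 15. The peptidase gene Naalad2 went the other way, higher without Oct4 (1.98) and lower without Sox2 (-1.60).

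**Figure D5:**
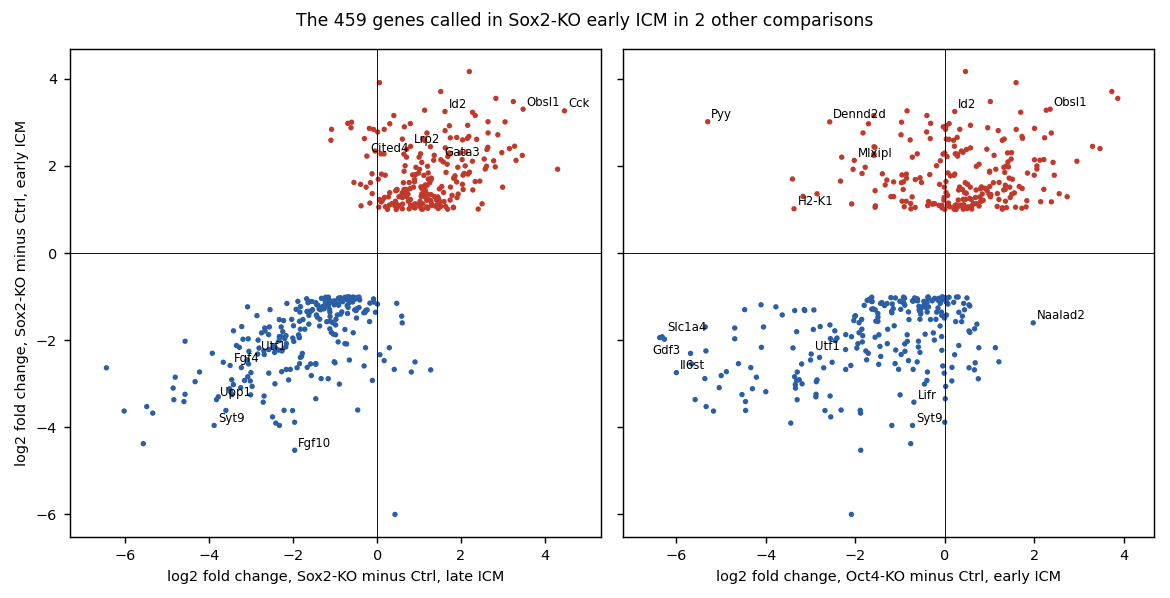
Log2 fold change in Sox2-KO early ICM (vertical axes) of the 459 called genes against their fold change in Sox2-KO late ICM (left, horizontal axis) and in Oct4-KO early ICM (right), with blue and red points for genes called lower and higher in Sox2-KO early ICM. On the left 203 of 221 higher and 226 of 238 lower genes have the same sign; on the right 148 and 201 do, and Pyy, Dennd2d, Mlxipl and H2-K1 stand in the quadrant of opposite signs.

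Promoter sequences from RefSeq, covering 250 bases before to 50 after each annotated start on GRCm38.p6, of which a gene can have several, were matched by symbol to 10,095 of the 14,053 genes tested. They were searched on both strands for the SOX core CATTGT and for the octamer ATGCAAAT. The SOX core was present in a promoter of 20 of 186 lower genes (10.8%), 16 of 165 higher genes (9.7%) and 926 of all 10,095 (9.17%). The octamer was present in 3 (1.61%), 6 (3.64%) and 172 (1.7%), and no promoter held the core and the octamer within 3 bases of each other. The shares of genes with the core were therefore near the background in both directions. Lifr, Bcl3 and Slc7a1 were among the lower genes described above with a core in this window, and 30 bases around the core furthest upstream are shown for each, read 5′ to 3′ on the strand of the gene, with the core in capitals (CATTGT or its reverse complement). The cores begin 215, 161 and 63 bases upstream of an annotated start, which for Lifr and Slc7a1 is an internal one that lies within the gene as given by GENCODE. The stretches are at chr15:7140315-7140344 (plus strand), chr7:19822899-19822928 (minus strand) and chr5:148392861-148392890 (minus strand).
Lifr: tgcataaccagaCATTGTactggctagttt
Bcl3: ccggccagaggcACAATGagcagagtggcg
Slc7a1: tgttctgtgcggACAATGttcccttcgatc
A match shows only that these letters occur there. Distal elements were not searched.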

How the data were processed

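Single mouse morulae and ICMs had been profiled by 3′ UMI RNA-seq. According to the methods, the authors extracted UMIs with UMI-tools, trimmed reads with Cutadapt, aligned them to mm10 with TopHat2, counted genes of GENCODE vM23 with featureCounts and corrected the UMI numbers with TRUmiCount. Tool versions and the use of strand are not given in the sources used here, so values of genes that overlap another (such as Sox2 and Sox2ot, Fgd1 and Tsr2, Nkx6-2 and Inpp5a, Obsl1 and Tmem198, Cib2 and Sh2d7, Fgfr2 and Ate1, Junb and Prdx2) are uncertain. The deposited table of raw UMI counts gave all results, and the deposited log2 values, which the authors made with DESeq2's rlog, served for 1 alternative.

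Genes with a UMI in a share of at least 0.5 of the embryos of a stage were fitted in edgeR 4.0.16 (R 4.3.3, TMM scaling) over all 96 Ctrl and KO embryos of both lines, and Sox2-KO was contrasted with Ctrl at early ICM by the quasi-likelihood test. Calls needed a Benjamini-Hochberg adjusted p under 0.05 and a log2 fold change of at least 1. DESeq2 1.42.0 and limma 3.58.1 were alternatives. CPM is the count of a gene per 1000000 UMIs of an embryo. The scripts were tested on simulated data. The genes named were Sox2 and Pou5f1, the 12 largest called changes in each direction among genes whose higher group averaged 20 CPM or more and whose 8 KO ICMs all lay on one side of the Ctrl median (predicted genes, clones and pseudogenes passed over), called members of 31 lists and up to 3 of the most abundant uncalled members. One called list member is counted but not reported here. The members and lists were chosen with earlier results of these data known. The labels do not say whether embryos came from separate litters, so p-values measure the spread between these embryos, and intervals of UMI ratios cover counting error only. The planned search for OCT-SOX motifs within 10 kb of genes needs a genome sequence and was not run, and promoters were searched instead.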

Additional observations from a re-analysis of the deposited data

Results flagged for a closer look

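Among 156 groups of 8 early ICMs tested (70 named genes and 8 measures per embryo, in Ctrl and KO), 19 held 1 ICM that stood apart from the others by Dixon's test, which chance alone does in about 1 in 20 groups. In Ctrl the single high ICMs were at 64.0 CPM for Syt9, 37.4 CPM for Nkx6-2, 563 CPM for Fgf4, 15.6 CPM for Cdx2, 355 CPM for Asns and 50.5 CPM for Zic5. In KO they were at 6.45 CPM for Fgf10, 69.2 CPM for Enpp1, 136 CPM for Lrp2, 63.1 CPM for Ier3, 49.0 CPM for Mthfd2, 81.6 CPM for Smad7, 41.2 CPM for Gdf3, 2.58 CPM for Fgf3, 994 CPM for Krt8, 27.3 CPM for Junb and 99.8 CPM for Klf2. The summed trophectoderm markers of KO ICM 11, the same embryo as for Krt8 and Smad7, were at 5275 CPM, and the summed naive markers of Ctrl ICM 10, the same as for Fgf4, at 12704 CPM.

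For 23 named genes the effect of losing Sox2 differed from that of losing Oct4 in early ICM by the test of the difference, given here as the log2 effect in the Sox2 line minus that in the Oct4 line. The 2 targeted genes were among them, Sox2 at -2.44 and Pou5f1 at 5.99. The difference was negative for Fgf10 (-2.65), Syt9 (-3.24), Lifr (-2.73), Fgf3 (-3.18) and Ptges (-1.44). It was positive for Upp1 (2.22), Sap30 (1.71), Cck (4.11), Id2 (3.02), Pyy (8.32), Cib2 (4.59), Enpp1 (2.52), Zfp248 (2.31), Cdc6 (1.47), Slc1a4 (4.40), Il6st (3.26), Gdf3 (4.43), Plet1 (1.27), Tdgf1 (2.92), Cish (2.39) and Tcl1 (2.54). For Il6st, Gdf3, Slc1a4 and Pyy the Oct4-KO median was 0 CPM, so the size of these differences depends on the prior count of the fit.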

How the results depend on the processing

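The 221 higher and 238 lower genes became 228 and 229 with DESeq2 (204 and 213 shared), and stayed within 1.5 times with other scalings, filters on low counts, thinned counts, a Y-linked covariate or other embryos added to or left out of the rest of the fit. With the 7 MWT ICMs in place of Ctrl, 580 were higher and 490 lower, of which 127 and 126 were shared. With limma on the rlog values, 115 were higher and 90 lower and 20 named genes lost their call, and with no minimum fold change 452 and 537. Both limma and thinned counts ended the call of Ly6e, Wnt3a, Cdkn2c, Asns, Vgll4, Nupr1, Fgf3, Slc7a1 and Tcl1. Of these 2 settings, limma alone ended that of Mthfd2, Cdc6, Slc1a4, Smad7, Tfap2c, Slc7a3, Tdgf1, Bmf, Krt8, Tcf7l1 and Trp53. Thinned counts alone ended that of Prdm14. Without Ctrl ICMs 9, 10, 11 and 15, chosen after seeing the data, 108 were higher and 121 lower, and Asns (0.38), Nupr1 (1.24), Slc7a1 (0.33) and Tcf7l1 (0.26) changed direction. Leaving out 1 embryo gave 194 to 245 higher and 181 to 256 lower genes, lowest for the lower genes without Ctrl ICM 9. Of 69 called genes named, 51 kept their call whichever embryo was left out and none changed sign. With MWT in place of Ctrl, 32 named genes lost their call, and 7 of them changed direction: Lrp2 (-0.24), Smad7 (-0.028), Cdx2 (-0.32), Nupr1 (1.17), Cish (-0.038), Cldn4 (-0.092) and Tcf7l1 (1.37). DESeq2 did not call Pyy, Ier3, Asns, Nupr1 and Tcl1. The cause of these changes was not tested; settings with fewer embryos also have less power.

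Only 4 replicate numbers occur in both groups, and they did not pair the ICMs (correlation of deviations 0.17, 0.08, -0.00 and -0.08, with number 2 alone correlating best with its own). With these 8 ICMs and the number as a replicate block, 273 were higher and 145 lower, and without the block 148 and 79. The median log2 fold change of 30 of 31 lists moved by under 0.2 without members of at most 3 UMIs, and that of cumulus and blood cells went from 0.14 to 0.72. The OCT-SOX search with its windows of 2, 10 and 50 kb and its mismatch was not run. At this depth genes of a few CPM rest on a few UMIs per ICM, and small differences there were not detectable.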

Other observations

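Gm11942, a processed pseudogene on chromosome 4, had the largest decrease of the 459 called genes, at -5.999 ± 1.46 on the log2 scale (edgeR adjusted p = 0.00367). Its level came in 2 steps within the Ctrl group, with 3 of 8 Ctrl ICMs at 1466 to 2045 CPM and the other 5 at 1.09 to 15.5 CPM. All 8 KO ICMs were at 3.21 to 17.7 CPM, and 5 of 7 MWT ICMs were at 1383 to 2141 CPM and the other 2 at 19.4 and 20.3 CPM. It was the 1 called gene with a step of at least 10-fold between neighbouring ICMs of a group that reached at least 10 CPM, with at least 2 ICMs on each side and levels under 1 CPM taken as 1 CPM. Pseudogenes share sequence with their parent gene, so its counts are uncertain.

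Tmsb4x, an X-linked gene for an actin-binding peptide, was higher in KO (2.78 ± 0.82, edgeR adjusted p = 0.0213) through 4 of 8 ICMs. KO ICMs 1, 2, 8 and 11 were at 132 to 441 CPM and the other 4 at 5.35 to 16.3 CPM, against 4.42 to 49.6 CPM in Ctrl. It was not called without Ctrl ICMs 9, 10, 11 and 15. Both genes were picked after their values were seen.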
